A study of Homo sapiens with 18 samples.

Results

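The 10 genes described here encode transcription factors that give the mesenchyme of the gut its identity: the forkhead factors FOXF1, FOXF2 and FOXL1, the homeobox factors NKX2-3 and BARX1, the T-box factors TBX2 and TBX3, the bHLH factors HAND1 and HAND2, and the zinc finger factor OSR1. Every peak of open chromatin that overlapped the body of one of these genes, or the 50 kb on either side of it, was taken as a member, with gene bodies from GENCODE on hg38. That gave 231 of the 334857 peaks in the table. The windows held between 11 peaks (OSR1) and 34 peaks (BARX1). The filter on low counts removed no peak of the whole table, so no member either. The FOXF1 and FOXL1 windows shared 10 peaks, because these neighbours on chromosome 16 have windows that overlap.

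Mesenchyme lies beneath the gut epithelium and signals to it. Hedgehog ligands from the epithelium switch on FOXF1, FOXF2 and FOXL1 in the mesenchyme below, and FOXL1 is known as a marker of subepithelial cells that secrete Wnt ligands. NKX2-3 patterns the mesenchyme and vessels of gut and spleen, BARX1 that of the stomach, HAND1 and HAND2 act early in lateral mesoderm, TBX2 and TBX3 are largely repressors, and OSR1 acts in intermediate mesoderm and in the foregut. Open chromatin at such genes marks starts and distal elements that factors can reach. It does not measure the RNA.

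On hg38, FOXF1 at chr16:86510527-86515422 (plus strand), FOXL1 at chr16:86576368-86583478 (plus strand) and FOXF2 at chr6:1389576-1395603 (plus strand) are the forkhead genes. NKX2-3 at chr10:99532942-99536524 (plus strand) and BARX1 at chr9:93951627-93955355 (minus strand) hold homeoboxes, and TBX2 at chr17:61399843-61409466 (plus strand) and TBX3 at chr12:114670255-114684175 (minus strand) T-boxes. HAND1 at chr5:154474972-154478227 (minus strand), HAND2 at chr4:173524969-173530229 (minus strand) and OSR1 at chr2:19351485-19358623 (minus strand) complete the set. Distances are from the annotated start to the centre of a peak, downstream meaning in the direction of transcription.

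Chromatin accessibility was measured by bulk Omni-ATAC-seq in 18 libraries of Ccd18-Co, a human fibroblast line from colon. The 6 unstimulated libraries came from cells for which the labels list no further treatment. The 6 DMSO libraries came from cells given 3 pulses of TNF, OSM and IL-17A at 10 ng/ml each with IL-1B at 0.1 ng/ml, each pulse being 72 h of cytokine in serum-free medium and 96 h of recovery, then 1 week of rest and 5 days of DMSO as the vehicle. The 6 belinostat libraries came from cells pulsed in the same way and then given the histone deacetylase inhibitor belinostat at 250 nM for those 5 days, and nuclei were taken 2 weeks after the last exposure. The doses given here come from the labels, while the study's text gives IL-1B at more than 1 dose and a legend gives belinostat at another. All groups are 1 cell line, used up to passage 20 and seeded at 25000 cells. Since the labels give no serum-free period or vehicle for the unstimulated cells, the cytokines, the medium changes and the vehicle cannot be told apart in the DMSO cells. The labels do not say that replicates were separate cultures, so p-values measure the spread between these libraries, which may be technical.

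Libraries held 7077321 to 11352032 counts in peaks in the unstimulated group, 6488975 to 8066642 in the DMSO group and 4661678 to 6370845 in the belinostat group, so the belinostat values were the shallowest. The share of peaks with no count was 11.3% in unstimulated replicate 6, against 0.384% to 5.35% in the other libraries. Of 8 fibroblast starts 7 lay in a peak, the exception being THY1, and they ranged from COL1A1 at 65.3 CPM per kb, COL1A2 at 43.5, PDGFRA at 41.0 and PDGFRB at 37.0 to COL3A1 at 14.8, DCN at 9.54 and LUM at 8.25, the last 3 below the median of 20.0 over all starts in a peak. None of the 4 immune starts lay in a peak. Of the 6 epithelial starts 3 did, KRT8 at 29.7 CPM per kb, EPCAM at 4.13 and CDX2 at 5.48 in unstimulated cells, and their sum ran from 35.2 to 45.9 in the unstimulated, 27.2 to 37.1 in the DMSO and 28.9 to 40.9 in the belinostat libraries. The part of other cells in the results below was not tested.

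At their starts the members fell into an open and a weakly open set. CPM per kb, the count scaled to the library and divided by the width of the peak, allows genes to be compared, and over all 13201 protein-coding starts in a peak (65.9% of 20020) its median in unstimulated cells was 20.0. The start of NKX2-3 held 63.0 to 68.8 CPM per kb in the 6 unstimulated libraries (median 65.8), the highest median of the 10 genes. TBX3 ran from 55.5 to 72.0 (median 63.6) and TBX2 from 55.1 to 69.7 (median 60.3), so these 3 ranges overlapped and their order is not resolved. FOXL1, at 37.4 to 46.7 (median 42.6), and FOXF1, at 33.3 to 39.1 (median 34.8), came next and also overlapped. The FOXF1 peak, 2329 bp wide, covered the start of the lncRNA FENDRR as well, so reads from these divergent starts cannot be separated. This order depends on the width of the called peaks. Before division by width, the unstimulated libraries held 77.6 to 91.0 CPM at the FOXF1 start and 73.0 to 94.7 at TBX3, against 42.4 to 46.2 at NKX2-3.

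FOXF2 was lower at 10.7 to 15.6 CPM per kb (median 11.8). OSR1 (7.12 to 8.58, median 7.63), HAND2 (4.76 to 6.84, median 5.88) and HAND1 (3.82 to 6.98, median 5.58) were lower still. These starts and that of FOXF2 all lay below the median of all starts in a peak. By CPM per kb the ranges of HAND1 and HAND2 overlapped. Before division by width they did not: unstimulated libraries held 3.87 to 7.06 CPM at HAND1 and 9.02 to 13.0 at HAND2. OSR1 held 11.0 to 13.2 CPM, which overlapped HAND2. BARX1 had no peak over its start: the nearest peak centre lay 406 bp upstream and had a median of 0.39 log2 CPM in unstimulated cells. Among all protein-coding genes, those without a start peak counted as 0, NKX2-3 stood at percentile 97.0 and HAND1 at percentile 43.2.

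**Figure D1:**
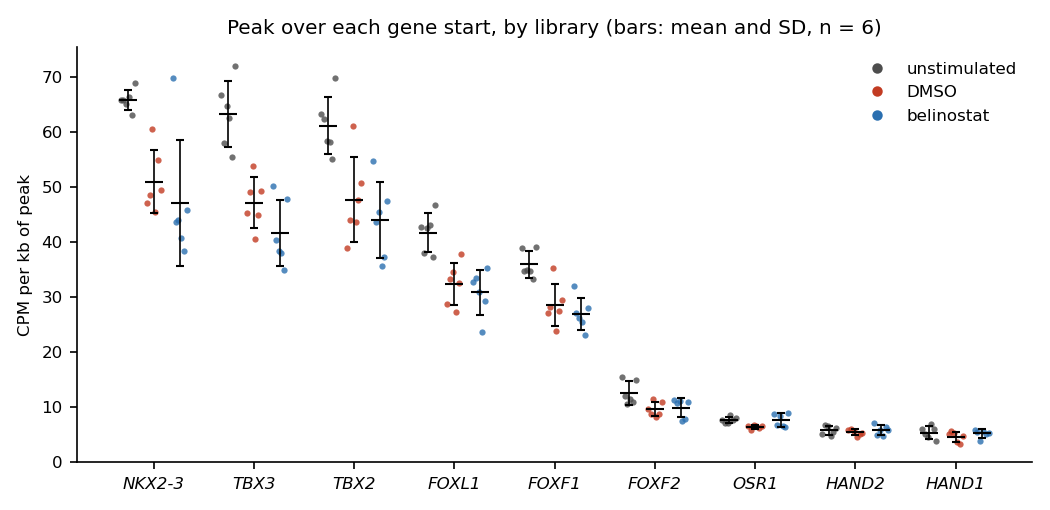
CPM per kb of the peak over each gene start, with 1 point per library, 6 libraries per group and bars for the mean and SD. NKX2-3, TBX3 and TBX2 stand at 55.1 or more in every unstimulated library, while OSR1, HAND2 and HAND1 reach at most 9.02 in any library.

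The promoters of NKX2-3, in the open set, and HAND1, in the weakly open set, are shown so that the letters of an open and a weakly open start can be read side by side. These are the 250 bases before the start from RefSeq (GRCh38.p14), 5′ to 3′ on the gene's strand, with CG in capitals. NKX2-3 lies at chr10:99532692-99532941 on the plus strand and HAND1 at chr5:154478228-154478477 on the minus strand, and RefSeq's table matched 4 of the 10 genes (FOXF2, NKX2-3, HAND1 and HAND2).
NKX2-3: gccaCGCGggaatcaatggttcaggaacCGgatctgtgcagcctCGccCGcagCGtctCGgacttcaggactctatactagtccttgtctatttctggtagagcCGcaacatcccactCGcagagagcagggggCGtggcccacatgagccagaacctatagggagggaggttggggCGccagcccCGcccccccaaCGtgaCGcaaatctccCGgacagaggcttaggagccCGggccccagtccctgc
HAND1: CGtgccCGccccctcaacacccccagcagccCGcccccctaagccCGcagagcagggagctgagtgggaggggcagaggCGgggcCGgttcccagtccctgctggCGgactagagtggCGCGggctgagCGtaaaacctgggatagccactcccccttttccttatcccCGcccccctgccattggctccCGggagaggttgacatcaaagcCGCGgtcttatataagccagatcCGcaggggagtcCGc
Each held 16 CG in 250 bases, at 63.2% G and C for NKX2-3 and 67.2% for HAND1. In the peaks over the 9 starts, the 300 bases at the centre had a median of 67.7% G and C and 24 CG, against 49.7% and 3 over all peaks.

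Away from the starts, the windows differed in how the signal was spread. Summed over its window, FOXF1 had the densest open chromatin, at 2.74 CPM per kb of window in unstimulated cells (percentile 96.1 of 19780 windows), followed by FOXL1 at 2.13, TBX2 at 1.84 and NKX2-3 at 1.64. FOXF2 (1.11), TBX3 (1.05) and HAND1 (0.925) were intermediate, and HAND2 (0.479), OSR1 (0.434) and BARX1 (0.385, percentile 27.5) were lowest. TBX3 drew 64.3% of its window's counts from the start peak alone, whereas FOXF1 drew 27.5%, NKX2-3 26.6% and FOXF2 14.7%. In 3 windows the strongest peak belonged to another transcript: 57.7% of the HAND1 window lay in the peak over the start of SAP30L, 51.4% of the OSR1 window over that of LINC01376, and 33.9% of the TBX2 window in a peak 11845 bp downstream over the starts of LINC02875 and TBX2-AS1. Window values for HAND1 and OSR1 are therefore mostly not signal at the named gene.

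Of the 231 peaks, 52 touched an exon, 54 lay in introns and 125 between genes. By the mean over all libraries, 39 were high (log2 CPM of 3 or more), 59 intermediate (1 to under 3) and 133 low (under 1). BARX1 had 30 low peaks of 34 and no high peak. FOXL1 had 8 high peaks, FOXF1 7, and FOXF2 and NKX2-3 6 each.

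The cytokine contrast, DMSO against unstimulated, asks what the pulses left behind after weeks without cytokine. Of the member peaks, 34 closed and 15 opened at an adjusted p under 0.05 (edgeR's quasi-likelihood test, Benjamini-Hochberg over all 334857 peaks), where over all peaks 9.73% closed and 9.51% opened. The closed peaks lay mostly at 2 genes: 11 of the 21 peaks of the NKX2-3 window and 10 of the 27 of the FOXL1 window closed. FOXF2 and TBX2 had 4 closed peaks each, FOXF1 3, HAND1 2 and TBX3 1, with 1 of these shared by FOXF1 and FOXL1, and BARX1, HAND2 and OSR1 had none. The opened peaks were scattered, with 4 at HAND2, 3 at TBX2, 2 each at BARX1 and TBX3, 1 each at FOXF2, NKX2-3 and HAND1, and 1 shared by FOXF1 and FOXL1. In bulk nuclei, fewer cells with an open site and a less open site in every cell cannot be told apart.

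Direction followed height in these windows as in the whole table. Among the high peaks 24 of 39 closed and 0 opened (0 also at an unadjusted p under 0.05), against 66.4% and 0.326% of all high peaks. Among intermediate peaks 9 of 59 closed and 0 opened (1 at an unadjusted p under 0.05), against 16.5% and 3.79%, and over all heights DESeq2 opened 8 member peaks. Among low peaks 1 of 133 closed and all 15 opened peaks were found, against 0.8% and 12.2%. The members' shares were thus near the background at each height, and their median log2 fold change of -0.37 at the high peaks stood beside -0.36 for all high peaks. The count of closed peaks moved with scaling: by library totals, which moved the median of all peaks from 0.13 to 0.34, 12 member peaks closed and 30 opened (10894 and 54265 of all peaks), and DESeq2 closed 20. Without DMSO replicate 4 the count of closed peaks was 21, and without DMSO replicate 1 that of opened peaks was 6.

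**Figure D2:**
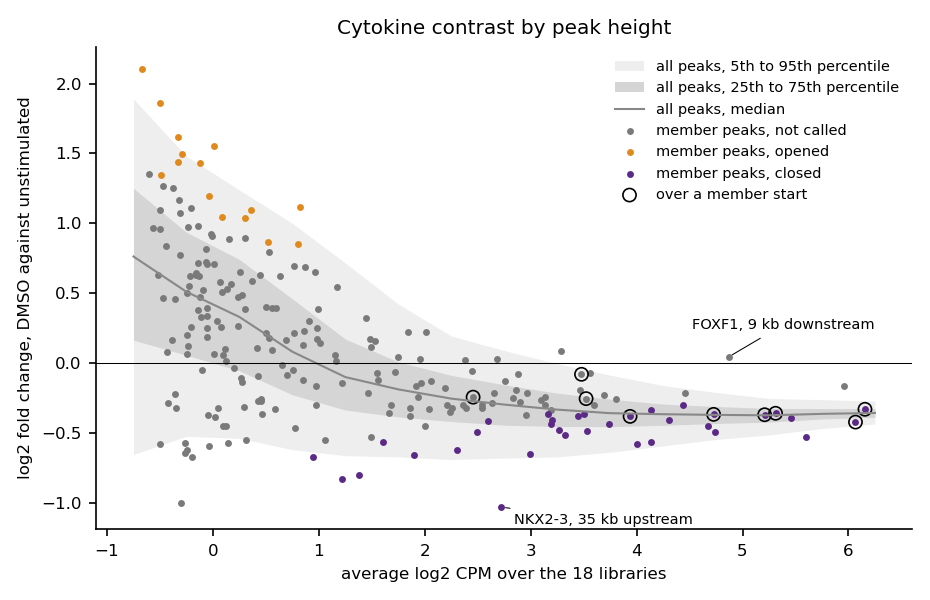
Log2 fold change of the cytokine contrast against the average log2 CPM over the 18 libraries, with member peaks as points coloured by call, circles around the 9 start peaks, and grey bands for the percentiles of all peaks. Most member peaks follow the grey median, the peak upstream of NKX2-3 lies below the 5th percentile at -1.03, and the FOXF1 peak 9174 bp downstream lies above the 95th at 0.04.

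The starts of the gut forkhead genes, NKX2-3 and both T-box genes closed. In this contrast the groups did not overlap at 21 of the 231 member peaks (9.09%) and at 6.07% of all peaks. NKX2-3 went from a median of 65.8 to one of 49.0 CPM per kb, with DMSO libraries from 45.4 to 60.5 that did not overlap the unstimulated ones, and its log2 fold change was -0.37 ± 0.11 (SE, edgeR adjusted p = 0.00923). TBX3 went from a median of 63.6 to 47.2, without overlap (40.5 to 53.8), a log2 fold change of -0.42 ± 0.10 (adjusted p = 0.00182). TBX2 fell by 0.36 on the log2 scale, FOXL1 by 0.37, FOXF1 by 0.33 and FOXF2 by 0.38, with adjusted p from 0.0107 to 0.0182 and overlapping groups. These 6 of 9 starts compare with 61.2% of all start peaks closed. HAND1 (log2 fold change -0.24, adjusted p = 0.278), HAND2 (-0.08, 0.694) and OSR1 (-0.26, 0.141), the 3 weakest starts, did not pass, though for OSR1 the groups did not overlap. With offsets that follow peak height (a loess curve in each library), all 6 of the called starts lost the call, at log2 fold changes from -0.03 (FOXF2) to 0.09 (FOXF1). Library totals ended the call at FOXF1, FOXF2, FOXL1, NKX2-3 and TBX2, and leaving out unstimulated replicate 1 or DMSO replicate 4 ended it at FOXF1 (-0.29 and -0.28) and FOXF2 (-0.30 and -0.34). For FOXF2 it was also lost without unstimulated replicate 6 (-0.32) and with DESeq2 (-0.34), and for FOXF2 and FOXL1 with a filter at 0 log2 CPM (-0.24 and -0.22).

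The largest fall among called peaks was at NKX2-3. A 922 bp intergenic peak centred 35129 bp upstream of its start held 2.96 to 3.42 log2 CPM in unstimulated libraries (median 3.16), 1.57 to 2.63 in DMSO (median 2.25) and 1.95 to 2.94 in belinostat (median 2.63). Every DMSO library, and every belinostat library too, lay below every unstimulated one. The log2 fold change of DMSO against unstimulated was -1.03 ± 0.16 (adjusted p = 4.15e-07), and it stayed past the threshold in all 24 alternatives, from -1.15 to -0.75. Belinostat against DMSO gave 0.42 ± 0.17 (adjusted p = 0.198), and belinostat against unstimulated gave -0.62 ± 0.15 (adjusted p = 0.00105), a call that was lost with library totals (-0.31, adjusted p = 0.0747) and with height-following offsets (-0.22, adjusted p = 0.325). Within each library, the log2 ratio of this peak to the NKX2-3 start was -2.29 ± 0.19 in unstimulated, -2.94 ± 0.33 in DMSO and -2.41 ± 0.49 in belinostat cells (SD, n = 6 each). That ratio is free of library scaling and is given as a description.

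Offsets that follow peak height left 3 member peaks closed (1.77% of all peaks) and 4 opened (2.14%). All 3 closed peaks lay in the NKX2-3 window: the one 35129 bp upstream at -0.75 and, named after their values were seen, one 24246 bp upstream at -0.72 and one 15494 bp downstream at -0.78. The 4 opened were a BARX1 peak 44381 bp downstream at 1.06, a pair of FOXF1 peaks 9174 and 10329 bp downstream at 0.43 and 0.40, and the TBX2 peak 11845 bp downstream at 0.26. The FOXF1 pair, singled out after its values were seen, lies in exons of the lncRNA ENSG00000270020. The nearer one held 4.62 to 5.10 log2 CPM in unstimulated, 4.69 to 5.07 in DMSO and 4.80 to 5.08 in belinostat libraries, so its groups overlapped fully. Its log2 fold change without such offsets was 0.04 ± 0.11 (adjusted p = 0.809). It and its neighbour at 0.08 were the only 2 of the 39 high member peaks above 0, where 2.15% of all 29745 high peaks were.

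At FOXL1 closed peaks lay on both sides of the start. An intronic peak 1222 bp after the start held 4.88 to 5.29 log2 CPM (median 5.12) in unstimulated libraries and 4.39 to 4.80 (median 4.63) in DMSO, without overlap, a log2 fold change of -0.49 ± 0.11 (adjusted p = 0.000902). A peak 9832 bp downstream held 4.20 to 4.76 (median 4.40) in unstimulated and 3.43 to 4.08 (median 3.99) in DMSO libraries, also without overlap, and its log2 fold change was -0.56 ± 0.12 (adjusted p = 0.000441). Both stayed closed in 23 of 24 alternatives and lost the call with height-following offsets, at -0.10 and -0.20. The peak over the start of the neighbour FOXC2, another forkhead gene, closed by the same test (-0.33, adjusted p = 0.0305).

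Elsewhere, a FOXF1 peak 47917 bp upstream fell by 0.39 (adjusted p = 0.00467), a FOXF2 peak 18246 bp downstream by 0.49 (adjusted p = 0.00423), and a TBX2 peak 38550 bp upstream, inside an intron of BCAS3, by 0.62 (adjusted p = 0.00506). In all 3 the DMSO libraries lay below the unstimulated ones without overlap, as 9.09% of member peaks and 6.07% of all peaks did in either direction. Height-following offsets ended these calls, at 0.02 (FOXF1), -0.16 (FOXF2, adjusted p = 0.375) and -0.38 (TBX2, adjusted p = 0.145), and library totals ended those of FOXF2 (-0.27, adjusted p = 0.0512) and TBX2 (-0.40, adjusted p = 0.0514). In the HAND1 window the closed peak with the smallest p was the SAP30L start (-0.53, adjusted p = 0.000145), which with height-following offsets was at -0.12 (adjusted p = 0.176). The opened peaks were all low: the BARX1 peak 44381 bp downstream went from a median of 0.11 to 1.07 log2 CPM (1.12 ± 0.29, adjusted p = 0.00433) and passed in all 24 alternatives. Its groups overlapped, with unstimulated libraries up to 0.83 and DMSO libraries from 0.55. It held few counts, 1 to 10 in unstimulated and 8 to 20 in DMSO libraries. A HAND2 peak 23335 bp downstream went from -0.66 to 0.47 (1.55 ± 0.41, adjusted p = 0.00493), and a NKX2-3 peak 44762 bp upstream from -1.54 to -0.17 (2.11 ± 0.63, adjusted p = 0.0125), in both cases with overlapping groups and few counts, and height-following offsets ended both calls (adjusted p = 0.0627 and 0.138). The opened peaks with the smallest p at TBX3, TBX2, HAND1, FOXF2 and FOXF1 rose by 1.86, 1.20, 1.04, 0.86 and 0.85 on the log2 scale. They passed in 21 of 23 (TBX3), 19 of 23 (TBX2), 17 of 24 (HAND1), 14 of 24 (FOXF2) and 17 of 24 (FOXF1) alternatives. All 5 calls were lost with height-following offsets, at 1.39, 0.85, 0.78, 0.69 and 0.78, and those of TBX2, HAND1, FOXF2 and FOXF1 with DESeq2 (adjusted p from 0.0571 to 0.0758). Leaving out DMSO replicate 4 ended the TBX3 call (1.62, adjusted p = 0.0526) and the TBX2 call (1.16), as DMSO replicate 1 did for TBX2 (1.11). The HAND1 call was lost without unstimulated replicate 1, 4 or 6 or DMSO replicate 1 or 6 (0.87 to 0.99), the FOXF2 call without unstimulated replicate 1, 3, 4 or 6 or DMSO replicate 1, 2, 5 or 6 (0.74 to 0.89), and the FOXF1 call without unstimulated replicate 2, 4 or 6 or DMSO replicate 1 or 2 (0.64 to 0.83).

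**Figure D3:**
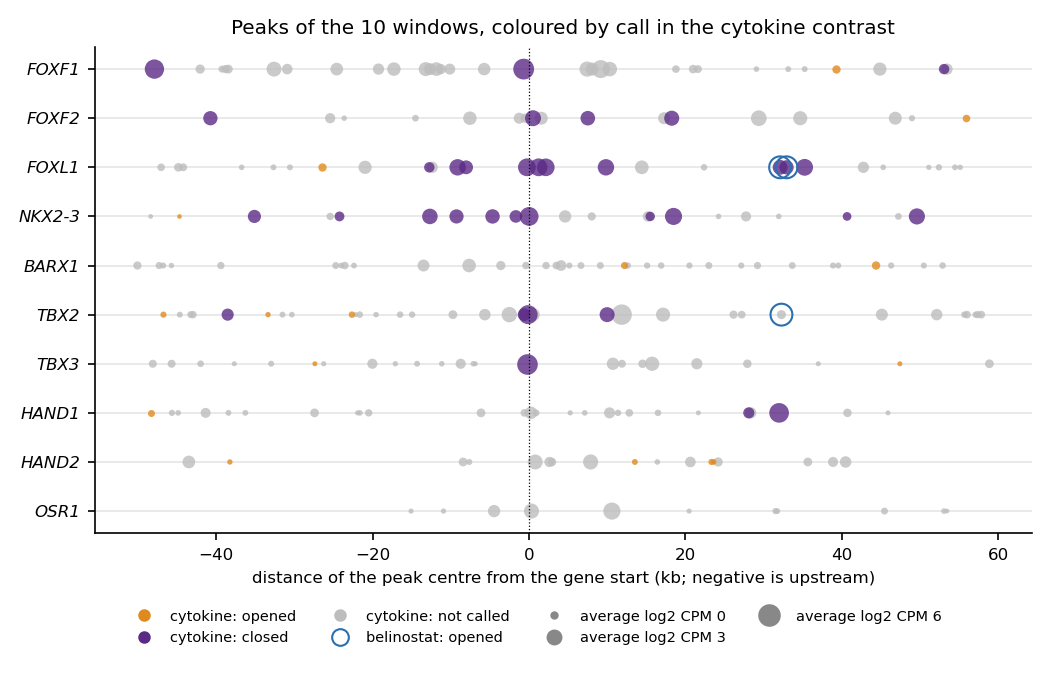
Peaks of the 10 windows by distance of their centre from the gene start in kb, with point size for the average log2 CPM, colour for the call in the cytokine contrast and blue rings for peaks opened by belinostat. NKX2-3 has 11 closed peaks on both sides of its start and FOXL1 10, while OSR1 has no peak called in the cytokine contrast and belinostat opened 3 peaks, 2 downstream of FOXL1 and 1 downstream of TBX2.

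Summing counts over each window gave 1 value per gene, scaled with TMM factors from these sums. CPM per kb of window is instead scaled with the factors of the peaks. In the cytokine contrast the windows of NKX2-3, FOXL1, FOXF2 and HAND1 were lower and those of HAND2 and BARX1 higher, 4 and 2 of 10, where 23.3% of all windows were lower and 21.1% higher. NKX2-3 held 6.01 to 6.12 log2 CPM in unstimulated and 5.70 to 5.94 in DMSO libraries, without overlap, a log2 fold change of -0.22 ± 0.04 (adjusted p = 0.000397). FOXL1 fell by 0.15 (adjusted p = 0.00328) and FOXF2 by 0.10 (adjusted p = 0.0303). HAND2 rose on the scale of the sums: its unstimulated libraries held 4.23 to 4.38 log2 CPM and its DMSO libraries 4.44 to 4.59, without overlap (0.20 ± 0.05, adjusted p = 0.00189), except that TMM over 10 kb bins gave 0.03 (adjusted p = 0.608). With the factors of the peaks it did not rise, at 0.479 CPM per kb of window in unstimulated and 0.473 in DMSO cells. BARX1 rose by 0.32 ± 0.12 (adjusted p = 0.0291). HAND1 fell by 0.10 (adjusted p = 0.0321), in a window of which the SAP30L start holds 57.7% of counts, and within 10 kb of HAND1 the log2 fold change was 0.17 (adjusted p = 0.252). FOXF1, TBX2, TBX3 and OSR1 lay between -0.05 and 0.01 and did not pass. With the factors of the peaks their means were lower in DMSO. FOXF1 went from 2.74 to 2.38 CPM per kb of window, TBX2 from 1.84 to 1.60, TBX3 from 1.05 to 0.877 and OSR1 from 0.434 to 0.374. BARX1 went the other way, from 0.385 to 0.414. NKX2-3 and FOXL1 passed in all 25 alternatives, HAND2 in 24, BARX1 in 18, FOXF2 in 15 and HAND1 in 12. The BARX1 call was lost with TMM over bins (0.15, adjusted p = 0.114), loess offsets (0.26, adjusted p = 0.0586) and the 10 kb window (0.20, adjusted p = 0.0952) and without unstimulated replicate 1 or 6 or DMSO replicate 1 or 4. That of FOXF2 was lost with library totals (-0.07), loess offsets (-0.08) and the 10 kb window (-0.12) and without any of unstimulated replicates 1, 2, 4 and 6 or DMSO replicates 1, 4 and 5. TMM over bins moved the median of all windows from -0.02 to -0.19, with 2180 higher and 13044 lower, and 8 member windows were then below 0.

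**Figure D4:**
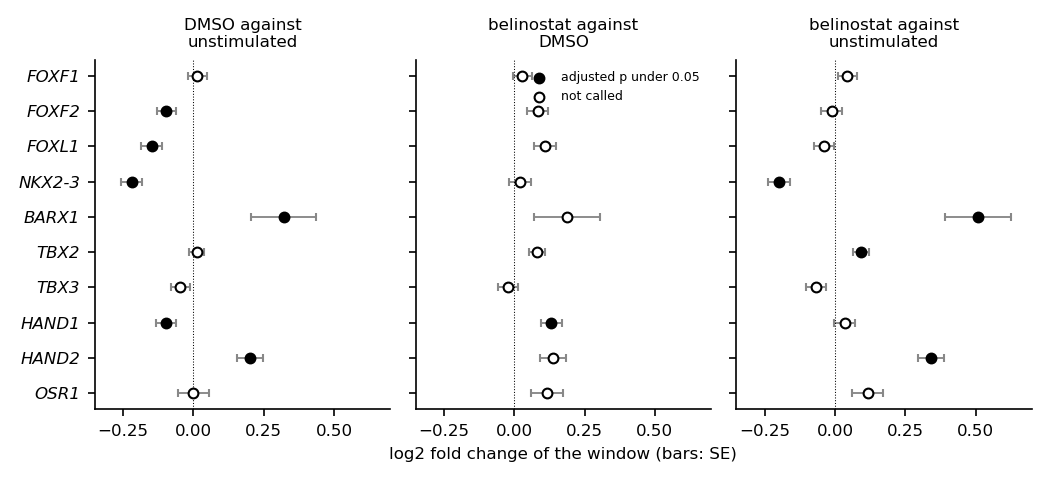
Log2 fold change of the counts summed over each gene's window in the 3 contrasts, with bars for the SE and filled points where the adjusted p was under 0.05. NKX2-3 is lower and HAND2 and BARX1 higher in both contrasts against unstimulated cells, and HAND1 alone is filled between belinostat and DMSO.

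The belinostat contrast, belinostat against DMSO, asks what the inhibitor changed in cells that had seen the cytokines. It shares its DMSO libraries with the cytokine contrast, so the 2 sets of values are not independent. Of the 231 member peaks 3 opened and 0 closed, where 0.607% of all peaks opened and 1.75% closed. At an unadjusted p under 0.05, 20 opened and 10 closed, and DESeq2 opened 2 and closed 1. A pair of the peaks that opened lay next to each other between genes, 32109 and 32930 bp downstream of the FOXL1 start, and the third 32280 bp downstream of the TBX2 start.

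The FOXL1 peak at 32109 bp held 3.27 to 3.66 log2 CPM in unstimulated (median 3.52), 2.92 to 3.47 in DMSO (median 3.07) and 3.38 to 4.16 in belinostat libraries (median 3.55). DMSO was lowest and the belinostat range overlapped both other groups. Belinostat against DMSO gave 0.50 ± 0.14 (adjusted p = 0.0200), DMSO against unstimulated -0.38 ± 0.13 (adjusted p = 0.0330), and belinostat against unstimulated 0.12 ± 0.13 (adjusted p = 0.504). The peak at 32930 bp held 2.95 to 3.43 (median 3.30), 1.44 to 3.22 (median 3.03) and 2.87 to 3.90 (median 3.52), where the 1.44 was a single DMSO library. Its values were 0.63 ± 0.16 for belinostat against DMSO (adjusted p = 0.00768), -0.44 ± 0.15 for DMSO against unstimulated (adjusted p = 0.0326) and 0.19 ± 0.15 for belinostat against unstimulated (adjusted p = 0.335). A more open neighbour at 35247 bp, named here after its values were seen, closed with the cytokines (-0.41, adjusted p = 0.00804) and held 3.99 to 4.29 in DMSO and 3.69 to 4.40 in belinostat libraries (-0.05, adjusted p = 0.866). With the cytokines, the fall at 32109 and at 32930 bp passed in 13 of 24 alternatives each. The belinostat call at 32109 bp was lost without DMSO replicate 4 (0.46, adjusted p = 0.0634) or belinostat replicate 1 (0.39, adjusted p = 0.0878). That at 32930 bp was lost with DESeq2 (0.66, adjusted p = 0.114) and without DMSO replicate 1 (0.45, adjusted p = 0.0923) or belinostat replicate 2 (0.54, adjusted p = 0.0615).

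The TBX2 peak was weaker, at 0.65 to 1.57 log2 CPM in unstimulated (median 1.03), 0.21 to 1.17 in DMSO (median 0.56) and 1.16 to 1.76 in belinostat libraries (median 1.40). The lowest belinostat library met the highest DMSO library. Belinostat against DMSO gave 0.93 ± 0.26 (adjusted p = 0.0223), while DMSO against unstimulated (-0.55 ± 0.26, adjusted p = 0.115) and belinostat against unstimulated (0.38 ± 0.24, adjusted p = 0.211) did not pass. The call was lost without DMSO replicate 2 (0.87, adjusted p = 0.0726), DMSO replicate 5 (0.86, adjusted p = 0.0526) or belinostat replicate 6 (0.84, adjusted p = 0.0859).

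**Figure D5:**
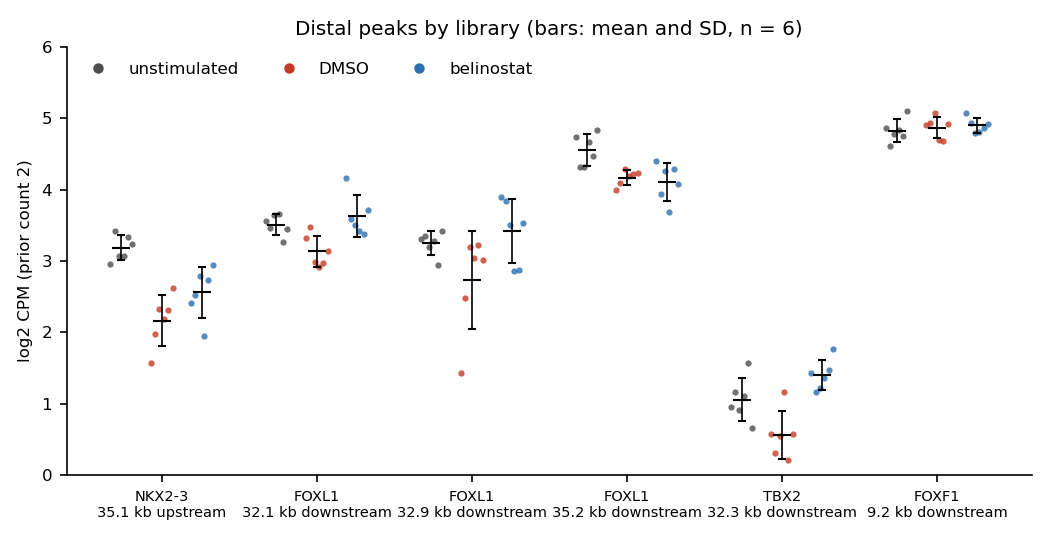
Log2 CPM of 6 distal peaks, with 1 point per library, 6 libraries per group and bars for the mean and SD. The NKX2-3 peak is lower in every DMSO library than in any unstimulated one, the FOXL1 peaks at 32109 and 32930 bp and the TBX2 peak are lowest in DMSO on average, and the FOXF1 peak overlaps in all groups.

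No member start passed in the belinostat contrast. The 9 log2 fold changes ran from -0.18 (TBX3, adjusted p = 0.377) to 0.24 (OSR1, adjusted p = 0.348), and at NKX2-3 the belinostat libraries ran from 38.4 to 69.8 CPM per kb. With height-following offsets 10 member peaks opened and 0 closed (9 at an unadjusted p under 0.05), where 1.03% of all peaks opened and 1.42% closed. They were 3 each at FOXF1 and TBX2, 2 at FOXL1, and 1 each at NKX2-3 (35129 bp upstream, 0.53, adjusted p = 0.0466) and OSR1 (its start, 0.38, adjusted p = 0.0203). By window, 9 of 10 log2 fold changes were above 0, where 43.2% of all windows lay below 0. Their median was 0.10, beside 0.02 over all windows (7 of 10 above 0 with TMM over bins). By CPM per kb of window, scaled with the factors of the peaks, FOXF1, FOXF2, NKX2-3, TBX2 and TBX3 were lower than in DMSO. FOXL1, BARX1, HAND1, HAND2 and OSR1 were higher. Only HAND1 passed (0.13 ± 0.04, adjusted p = 0.0311), where 3.71% of windows were higher and 4.97% lower. The HAND1 call was lost in 12 of 25 alternatives. HAND2 (0.14, adjusted p = 0.0609), FOXL1 (0.11, 0.0730) and TBX2 (0.08, 0.0769) came next.

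The residual contrast, belinostat against unstimulated, had 21 member peaks opened and 37 closed, where 16.8% and 13.7% of all peaks were. The starts of FOXF1, FOXF2, FOXL1, NKX2-3, TBX2 and TBX3 were closed in this contrast, which shares its unstimulated libraries with the cytokine contrast, by 0.36 (FOXF2) to 0.61 (TBX3) on the log2 scale, while HAND1, HAND2 and OSR1 lay between -0.07 and 0.02. With height-following offsets all 6 turned to values above 0, and FOXF1 was then called opened (0.24, adjusted p = 0.00019), while the other 5, from 0.05 (TBX3) to 0.14 (FOXF2), did not pass. The starts of HAND2 (0.50, adjusted p = 0.000589) and OSR1 (0.46, adjusted p = 0.000789) were also called opened with these offsets. So were 14760 of all 334857 peaks. Library totals ended the calls at FOXF1 (-0.12), FOXF2 (-0.06) and FOXL1 (-0.14), and the FOXF2 call passed in 15 of 24 alternatives, being lost also with DESeq2, TMM over bins (-0.29 each) and the filter at 0 (-0.16), and without unstimulated replicate 1 or 6 or belinostat replicate 4 or 5 (-0.31 to -0.28). By window NKX2-3 was lower (-0.20, adjusted p = 0.000209) and BARX1 (0.51, adjusted p = 0.000887), HAND2 (0.34, adjusted p = 5.88e-06) and TBX2 (0.09, adjusted p = 0.00746) were higher, where 29.4% of windows were higher and 29.2% lower. With the factors of the peaks, TBX2 was lower, from 1.84 CPM per kb of window in unstimulated to 1.58 in belinostat cells. On that scale HAND2 went from 0.479 to 0.486, BARX1 from 0.385 to 0.437 and NKX2-3 from 1.64 to 1.15. The TBX2 direction flipped with TMM over 10 kb bins (-0.15), which also ended the HAND2 call (0.09, adjusted p = 0.163), and within 10 kb the calls of NKX2-3, BARX1 and TBX2 were lost. BARX1 gained 8 opened peaks and 1 closed one, with libraries that ranged widely, from 3.94 to 4.89 log2 CPM in the belinostat group.

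The sequences of these distal peaks are shown because they carry the changes described: the 3 that belinostat opened, the NKX2-3 peak with the largest fall, and a FOXF2 peak that closed and holds 3 of the words searched. Each is the 300 bases at the peak centre on hg38, plus strand, 5′ to 3′, and capitals mark matches on either strand to 1 of 7 short words: GTAAACA (forkhead), CACTTNA (NKX2), AGGTGTGA (T-box), CATCTG (an E-box of the HAND type), TGANTCA (AP-1), GGAATG (TEAD) and GACCACCCA (GLI). They lie at chr16:86608327-86608626 (FOXL1, 32109 bp), chr16:86609148-86609447 (FOXL1, 32930 bp), chr17:61431973-61432272 (TBX2), chr10:99497663-99497962 (NKX2-3), chr6:1407672-1407971 (FOXF2).
FOXL1 32109 downstream: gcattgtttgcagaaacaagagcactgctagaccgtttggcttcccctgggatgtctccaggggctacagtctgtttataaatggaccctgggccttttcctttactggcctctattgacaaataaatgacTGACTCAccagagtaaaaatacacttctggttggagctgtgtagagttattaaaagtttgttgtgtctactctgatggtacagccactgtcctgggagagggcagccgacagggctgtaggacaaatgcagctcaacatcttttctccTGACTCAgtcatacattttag
FOXL1 32930 downstream: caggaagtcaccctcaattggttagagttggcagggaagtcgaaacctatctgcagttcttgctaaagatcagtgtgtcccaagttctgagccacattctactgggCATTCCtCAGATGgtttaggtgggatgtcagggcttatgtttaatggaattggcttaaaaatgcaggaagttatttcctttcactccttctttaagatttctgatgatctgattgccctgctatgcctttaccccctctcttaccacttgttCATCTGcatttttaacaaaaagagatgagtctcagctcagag
TBX2 32280 downstream: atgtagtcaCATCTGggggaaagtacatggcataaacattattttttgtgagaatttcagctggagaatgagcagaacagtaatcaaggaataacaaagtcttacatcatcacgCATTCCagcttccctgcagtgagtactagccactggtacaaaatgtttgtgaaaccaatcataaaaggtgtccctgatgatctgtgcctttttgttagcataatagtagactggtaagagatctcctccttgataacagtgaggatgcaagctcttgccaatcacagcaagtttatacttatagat
NKX2-3 35129 upstream: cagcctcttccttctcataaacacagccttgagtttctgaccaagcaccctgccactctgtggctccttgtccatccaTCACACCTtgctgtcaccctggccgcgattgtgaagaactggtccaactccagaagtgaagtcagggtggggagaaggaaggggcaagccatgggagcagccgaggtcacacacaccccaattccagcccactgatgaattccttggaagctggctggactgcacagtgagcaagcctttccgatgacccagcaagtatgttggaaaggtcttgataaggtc
FOXF2 18246 downstream: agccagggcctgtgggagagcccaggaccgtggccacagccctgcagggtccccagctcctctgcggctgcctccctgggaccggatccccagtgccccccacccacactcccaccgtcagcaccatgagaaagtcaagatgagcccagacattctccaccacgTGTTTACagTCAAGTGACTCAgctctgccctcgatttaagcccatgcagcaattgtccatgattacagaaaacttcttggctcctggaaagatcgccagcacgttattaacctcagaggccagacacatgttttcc
The FOXL1 peak at 32109 bp has 2 AP-1 words, its neighbour at 32930 bp 1 TEAD and 2 E-box words, and the TBX2 peak 1 E-box and 1 TEAD word. The NKX2-3 peak has 1 T-box word. In the FOXF2 peak a forkhead word at base 165, an NKX2 word at 174 and an AP-1 word at 179 stand together, and the last 2 share letters. The FOXF2 peak was chosen for its words. The TBX2 peak 38550 bp upstream, which also closed, holds 3 of the words too (AP-1, E-box and NKX2) and is not shown.

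Shares of peaks with each word are set beside those of all peaks, with no test. Of the 231 peaks, read over the 300 bases at their centre, 4.33% held the forkhead word (5.95% of all peaks), 17.7% the NKX2 word (15.7%), 1.30% the T-box word (1.63%), 25.1% the E-box (25.9%), 15.2% the AP-1 word (17.8%), 15.6% the TEAD word (21.3%) and 0.433% the GLI word (0.319%). A match is a run of letters and not a shown binding site.

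Other regulators of gut mesenchyme, 26 genes that include the Hedgehog receptors and GLI factors, were counted in the same way. By window 9 were lower and 2 higher in the cytokine contrast, where 23.3% of all windows were lower and 21.1% higher. Their median log2 fold change was -0.07 beside -0.02 over all windows. The PRRX1 window, at a mesenchymal homeobox gene, rose by 0.42 (adjusted p = 0.000141), and that of BMP4, which encodes a BMP ligand, fell by 0.21 (adjusted p = 0.000863). ISL1 (-0.21), NR2F2 (-0.16), PTCH1 (-0.11) and NR2F1 (-0.12) followed by p. In the belinostat contrast 3 were higher and 0 lower, where 3.71% of all windows were higher and 4.97% lower. They were HOXD13 (0.14, adjusted p = 0.0311), MEIS1 (0.15, adjusted p = 0.0364) and GLI2 (0.07, adjusted p = 0.0418). Of 12 transcription factors of other tissues, 5 had a start peak (PITX1, SIX2, NKX2-5, TBX4 and TBX20). Of the windows of all 12, 8 were higher and 1 lower in the cytokine contrast, with a median of 0.38, where 21.1% of all windows were higher and 23.3% lower. The genes without a start peak (TBX5, TBX15, EN1, WT1, PAX3, PAX1 and MYOD1) were all among the higher. The lower one was SIX2, whose start held 79.7 CPM per kb in unstimulated cells. Of the cell type lists in the cytokine contrast, windows of endothelial (3 of 4) and of glial and neuronal genes (3 of 4) were higher, those of fibroblast genes were lower in 6 of 8, of immune genes 1 was higher and 1 lower, and of epithelial and smooth muscle genes 0 were called. Over all windows 21.1% were higher and 23.3% lower. Whether these list counts follow the trend with height was not tested. Starts in a peak numbered 2 of 4 for endothelium, 1 of 4 for glia and neurons and 3 of 4 for smooth muscle. Among 3 neighbours with a window, FOXC2 was lower (-0.08, adjusted p = 0.0276).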

How the data were processed

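Omni-ATAC-seq reads of 18 libraries were processed by the authors with the ENCODE ATAC pipeline against hg38, peaks were called with MACS2 and joined to a consensus set, and the deposited values are raw read counts per peak, not normalized. ChIPseeker 1.34.1 is named in the submitters' processing notes. No other column was used.

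From these counts, TMM factors were computed over 334857 peaks with edgeR 4.0.16 in R 4.3.3, and the quasi-likelihood test was fitted to all 18 libraries with 1 mean per group and no covariate, Benjamini-Hochberg adjusted over all peaks, called at 0.05, after a filter at an average log2 CPM of -3. That filter removed no peak. Per-library log2 CPM used a prior count of 2, and CPM per kb divides by peak width. Counts were also summed over the gene body and 50 kb on either side for 19780 protein-coding genes of GENCODE 44. The sums were tested in the same way, with TMM factors from the sums. CPM per kb of window was scaled with the factors of the peaks. Low peaks hold few counts and are the least precise, and the belinostat libraries are the shallowest.

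Alternatives were library totals, DESeq2 1.42.0, TMM over peak counts summed in 10 kb bins (the study took factors from bins of that width, whose counts were not used here), loess offsets fitted with limma 3.58.1, a filter at 0, the replicate number as a block, a 10 kb window and each library left out. Peaks named are those over starts, the strongest of each window, the smallest p in each direction of the cytokine contrast and all belinostat calls, with exceptions stated. The members and lists were chosen with earlier results of these data known.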

Additional observations from a re-analysis of the deposited data

Results flagged for a closer look

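In 8 of 126 groups of 6 libraries, 1 library stood apart from the other 5 by Dixon's criterion, which chance alone meets in about 1 in 20 groups. Belinostat replicate 1 did so at the NKX2-3 start (5.56 log2 CPM, next 4.96), over the NKX2-3 window (6.04, next 5.86) and at the LINC01376 start 10593 bp downstream of OSR1 (4.61, next 4.19). At the last peak DMSO replicate 3 also stood apart (4.87, next 4.45). Low libraries were belinostat replicate 3 at the HAND1 start (2.06, next 2.47), unstimulated replicate 6 at the peak 406 bp upstream of BARX1 (-0.72, next 0.24) and DMSO replicate 2 at the peak 44762 bp upstream of NKX2-3 (-1.25, next -0.42). Unstimulated replicate 3 was high at the peak 46763 bp upstream of TBX2 (-0.12, next -0.56).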

How the results depend on the processing

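The cytokine fall of the peak 35129 bp upstream of NKX2-3 and the rise of the BARX1 peak 44381 bp downstream passed in all 24 alternatives, and the NKX2-3 and FOXL1 windows in all 25. The groups overlapped at the BARX1 peak, which held few reads. Counts of calls moved more. In the cytokine contrast, opened member peaks numbered 30 with library totals, 8 with DESeq2, 4 with loess offsets and 2 within 10 kb, and 6 to 19 with 1 library left out. Closed ones numbered 12, 20, 3 and 17 under those, 20 with the filter at 0, and 21 to 39 with 1 library left out. Member windows called numbered 3 to 6 with 1 library left out, 3 without unstimulated replicate 1 or 6 or DMSO replicate 4. In the belinostat contrast, opened peaks numbered 10 with loess offsets, 0 within 10 kb and 2 to 4 with 1 library left out. Closed ones numbered 1 with DESeq2 and with the filter, and 0 to 4 with 1 library left out, 4 of them without belinostat replicate 1. Windows called numbered 2 with DESeq2 and loess offsets, 0 with TMM over bins and within 10 kb, and 0 to 2 with 1 library left out. In the residual contrast, opened peaks numbered 69 with library totals, 33 with the filter, 6 within 10 kb and 14 to 30 with 1 library left out. Closed ones numbered 14 with library totals, 4 with loess offsets, 21 within 10 kb and 34 to 45 with 1 library left out, and windows 8 with TMM over bins and 4 to 5 with 1 library left out. With loess offsets the cytokine log2 fold change turned at the starts of NKX2-3 (0.0223), TBX3 (0.0042), FOXF1 (0.0935), FOXL1 (0.00998) and TBX2 (0.0375) and at the peak 47917 bp upstream of FOXF1 (0.0162). In the residual contrast these offsets turned the starts of NKX2-3 (0.0878), TBX3 (0.0465), FOXF1 (0.24), FOXF2 (0.141), FOXL1 (0.124) and TBX2 (0.117), the peak 9832 bp downstream of FOXL1 (0.036), the SAP30L start (0.0581) and the LINC01376 start (0.0946). The HAND1 window turned within 10 kb (0.17), and the residual TBX2 window with TMM over bins (-0.15). The cause of these changes was not tested. With the replicate number as a block, 1 member peak closed and 0 windows were called in the belinostat contrast, 53 of 55 named values kept their call and the HAND1 window lost it in both contrasts. Deviations of same-numbered libraries correlated at -0.133 to 0.106, over 0.1 in 1 of 18 pairs. Those of libraries with different numbers correlated at -0.219 to 0.263, over 0.1 in 6 of 90 pairs. No shared deviation by number was seen, which cannot show that the libraries were not paired.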
